A study of Mus musculus with 10 samples.

Results

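In sorted MC38 tumor cells, 10 genes for sensing nucleic acids inside cells were examined: Ddx58 (RIG-I), Ifih1 (MDA5), Dhx58 (LGP2), Tlr3, Zbp1, Eif2ak2 (PKR), the adaptors Mavs and Tmem173 (STING), and the restraints Adar and Trex1. They were taken by name, through the Ensembl identifier, as 10 of the 53379 genes in the count table. MC38 is a colon carcinoma line of C57BL/6 mice. The cells came from tumors of C57BL/6J mice fed either a high-fat diet (5 mice) or a control diet (5 mice), 21 days after the line was implanted. Cells carrying dTomato and lacking CD45, the pan-leukocyte surface protein, were sorted, and polyadenylated RNA was sequenced as 1 library per mouse. All mice carried the same line, so diet is the only difference the labels give between the groups. The labels do not say what the diets contained, how long they were fed, how old the mice were, or whether the line was a single clone.

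Cells carry receptors that treat misplaced RNA or DNA as a sign of infection or damage. RIG-I and MDA5 bind double-stranded RNA in the cytosol and signal through MAVS on mitochondria, while TLR3 reads double-stranded RNA in endosomes and STING relays the DNA sensor cGAS. These routes switch on type I interferon, and interferon in turn raises the transcription of most of the sensors themselves. Other sensors act more directly: PKR stops translation, and ZBP1, which recognises nucleic acids in the left-handed Z form, can trigger cell death through RIPK3. ADAR, which edits double-stranded RNA, and TREX1, which digests cytosolic DNA, keep the cell's own nucleic acids from setting off the alarm.

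On the high-fat diet Zbp1 was the sensor whose transcript stood farthest from its control level relative to the spread between mice, at 292 ± 31.7 CPM (CPM, the count relative to the effective library size after TMM scaling; SD, n = 5) against 195 ± 36.7 CPM on the control diet (SD, n = 5). Dhx58 and Ddx58 were also higher on average, and Mavs was at nearly the same mean level on both diets. By edgeR's quasi-likelihood method, with Benjamini-Hochberg adjustment over 14337 genes, 0 of the 9 sensor-pathway genes that could be tested passed an adjusted p of 0.05, where 9 genes of all tested (0.0628%) did, 0.0418% as higher on the high-fat diet. At an unadjusted p under 0.05, 3 of the 9 were higher on the high-fat diet and 0 lower, against 5.45% and 6.62% of all genes tested, and 12.1% in either direction. A positive change, whatever its p, was seen for 8 of the 9 and for 51.4% of all genes.

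Other tools called different numbers. DESeq2 called Zbp1 as higher and none of the other 8, where 1.83% of all genes with an adjusted p were called and 0.546% were called higher. Limma-voom called 0 of the 9, against 0.0349% of all genes and 0.0209% as higher. With sample quality weights, an alternative chosen after seeing the data, limma-voom called Zbp1, Dhx58 and Ddx58 as higher, against 5.16% of all genes and 2.41% as higher. Without a filter on low counts edgeR called Zbp1, against 0.182% of all genes and 0.0792% as higher.

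High-fat libraries held between 16513388 and 17154050 counts and control libraries between 17050797 and 18653705. A count of 3, the limit that a count of 0 allows, was worth between 0.159 and 0.183 CPM, for counting error only. With library size as a covariate, edgeR called 0 of the 9 genes, and 1 had an unadjusted p under 0.05, against 5.7% of all genes. The 8 epithelial markers summed to between 1.22 and 2.87 CPM in high-fat libraries and between 1.31 and 6.76 CPM in control libraries, with Epcam at no more than 0.534 CPM anywhere. The 6 fibroblast markers summed to between 2220 and 3310 CPM in high-fat libraries and between 2590 and 3430 CPM in control libraries. Dcn was at 1040 ± 239 CPM on the high-fat diet and 967 ± 207 CPM on the control diet, and Lum at 9.15 ± 10.4 and 19.2 ± 12.2 CPM. Of these markers 3 had a positive and 3 a negative change. Fibroblast-type transcripts were thus abundant as a sum, so the cells are called here by their sort. The dTomato transcript was not analysed here. The 12 macrophage markers summed to between 27.3 and 68.1 CPM in high-fat libraries and between 60.4 and 433 CPM in control libraries, highest in control mice 3 and 4. In edgeR 0 of these 12 passed and all 12 had a negative change at an unadjusted p under 0.05. The 6 endothelial markers summed to between 21.7 and 30.2 CPM in high-fat libraries and between 17.7 and 25.6 CPM in control libraries. Both endothelial markers that were tested had a positive change, 1 of them at an unadjusted edgeR p under 0.05, and their part in the sensors' values was not tested. In such bulk RNA, fewer cells of a type and less RNA per cell cannot be told apart.

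Per length, Zbp1 had the highest transcript level of these 9 genes on both diets. On the high-fat diet it stood at 82.7 ± 8.99 CPM per kb of annotated exon, followed by Ddx58 at 42.8 ± 5.75, Mavs at 25.35 ± 1.35 and Tmem173 at 16.9 ± 1.25 CPM per kb (SD, n = 5 each). Eif2ak2 (12.1 ± 2.23 CPM per kb) and Adar (11.5 ± 1.79) did not differ beyond their spread, and neither did Ifih1 (8.74 ± 1.12), Dhx58 (8.19 ± 1.07) and Tlr3 (7.58 ± 0.92). On the control diet the leading 4 kept this order, at 55.35 ± 10.4, 33.9 ± 5.20, 25.7 ± 3.02 and 16.05 ± 2.38 CPM per kb, and Dhx58 was last at 5.21 ± 2.10 CPM per kb. In the GRCm38 annotation Zbp1 (ENSMUSG00000027514.14) spans 173206612 to 173218923 on chromosome 2, and Ifih1 (ENSMUSG00000026896.14) 62595798 to 62646255 on the same chromosome. Ddx58 (ENSMUSG00000040296.15) spans 40203773 to 40239828 on chromosome 4, and Dhx58 (ENSMUSG00000017830.15) 100694884 to 100704271 on chromosome 11, and all 4 lie on the minus strand. Exon length was the union over annotated transcripts, so these levels are approximate.

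**Figure D1:**
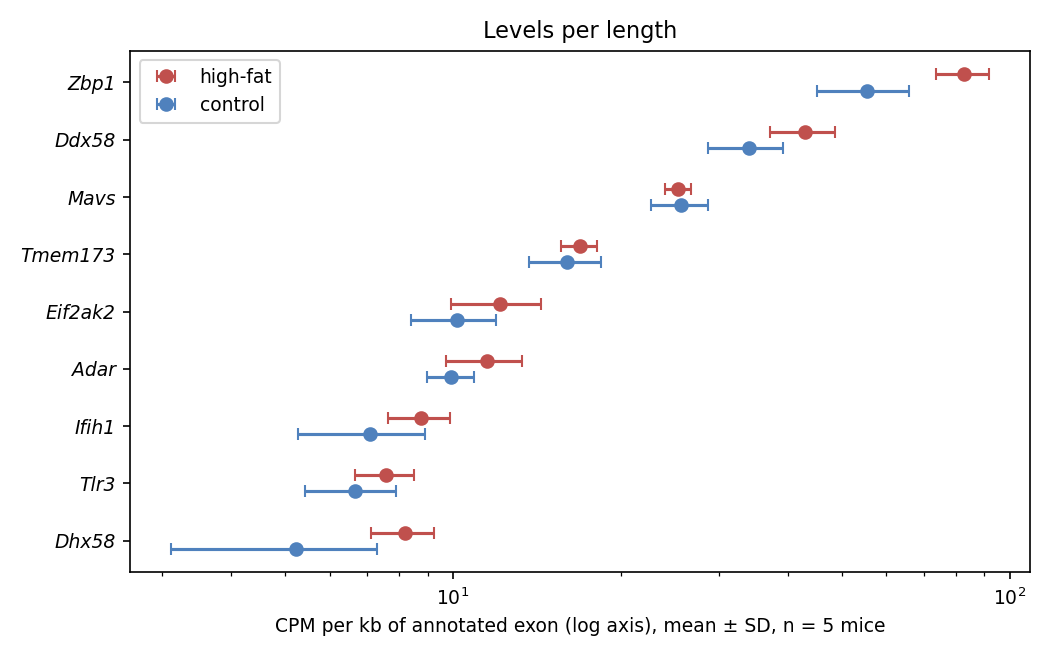
Transcript level per length of the 9 genes with counts, as mean CPM per kb of annotated exon on a log axis, with SD over 5 mice; high-fat above control for each gene. Zbp1 and Ddx58 lie to the right of the other 7 genes on both diets, and the SD bars of the diets overlap for every gene but Zbp1.

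Of the cytosolic RNA helicases, Ddx58, which detects RNA with a 5′ triphosphate, had 258, 317, 354, 317 and 264 CPM in high-fat mice 1 to 5, against 232, 195, 271, 282 and 216 CPM in control mice 1 to 5. High-fat mice 2, 3 and 4 lay above every control mouse, while high-fat mice 1 and 5 lay below control mice 3 and 4. The log2 change, high-fat minus control, was 0.34 (SE 0.12, 95% interval 0.08 to 0.59; edgeR unadjusted p = 0.0132, adjusted p = 0.271). Ifih1, whose protein prefers long double-stranded RNA, had 55.9, 76.5, 79.0, 74.4 and 71.2 CPM in high-fat mice, against 57.1, 40.2, 76.2, 68.8 and 47.3 CPM in control mice. The diets overlapped, with high-fat mouse 1 below control mice 1, 3 and 4, and the log2 change was 0.30 (95% interval -0.05 to 0.65; edgeR adjusted p = 0.51).

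Dhx58, which lacks the signalling domains of RIG-I and MDA5 and modulates them, had 22.2, 27.0, 32.0, 26.1 and 26.6 CPM in high-fat mice, against 14.95, 10.6, 23.5, 25.1 and 11.1 CPM in control mice. High-fat mice 2 to 5 lay above all controls, and control mice 3 and 4 above high-fat mouse 1. It had the largest estimated log2 change of the 9 genes, at 0.65 (SE 0.23, 95% interval 0.14 to 1.16; edgeR unadjusted p = 0.0166, adjusted p = 0.289). Control mice varied 2.37-fold from lowest to highest for Dhx58, and high-fat mice 1.44-fold. Its exons overlap Dhx58os on the opposite strand, which had at most 0.845 CPM in any library.

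Tlr3, the endosomal double-stranded RNA receptor, had 35.7, 44.2, 44.0, 39.8 and 33.7 CPM in high-fat mice, against 33.1, 30.0, 40.8, 41.9 and 27.5 CPM in control mice. The ranges overlapped over most of their length, and the log2 change was 0.19 (SE 0.13, 95% interval -0.08 to 0.46; edgeR adjusted p = 0.609). Among the endosomal receptors for other nucleic acids, Tlr7, Tlr8, Tlr9 and Tlr13 did not pass the expression filter. Tlr9, for instance, had 0, 0.657, 0.305, 0.177 and 0.292 CPM in high-fat mice, against 0.653, 0.159, 2.16, 3.22 and 0.285 CPM in control mice. Tlr13 was at 0.179 to 0.837 CPM in high-fat mice, against 1.19, 0.477, 5.66, 5.81 and 0.342 CPM in control mice. Both were highest in control mice 3 and 4, the mice with the highest macrophage marker sums (380 and 433 CPM). The part of these markers in Tlr9 and Tlr13 was not tested.

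Zbp1 had 251, 319.6, 319, 304 and 266 CPM in high-fat mice, against 208, 158, 229, 227 and 155 CPM in control mice. Every high-fat mouse lay above every control mouse, the only one of the 9 genes without overlap, where 2.18% of all genes tested were separated and 1.08% in this direction. The change was 1.49-fold, or 0.58 on the log2 scale (SE 0.13, 95% interval 0.31 to 0.85), with an unadjusted edgeR p of 0.000504 and an adjusted p of 0.125. DESeq2 gave an adjusted p of 0.00309 with the same size of change, and over 19 alternative fits the adjusted p lay between 0.000164 and 0.819 and the log2 change between 0.51 and 0.75. The highest of these adjusted p-values came with library size as a covariate, where the log2 change was 0.55. All control libraries but that of mouse 1 were larger than every high-fat library. Library size and diet can therefore hardly be told apart in that fit.

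Eif2ak2, the kinase that phosphorylates the initiation factor eIF2α when bound to double-stranded RNA, had 48.8, 60.7, 79.5, 64.5 and 56.5 CPM in high-fat mice, against 54.8, 38.6, 60.4, 58.8 and 47.4 CPM in control mice. Only high-fat mice 2, 3 and 4 exceeded the highest control, and the log2 change was 0.25 (SE 0.14, 95% interval -0.05 to 0.56; edgeR adjusted p = 0.525). Ripk3, the kinase through which ZBP1 starts necroptosis, was below the expression filter with 65 counts over all libraries, at 0.238, 0.239, 0.0611, 0 and 0.0583 CPM in high-fat mice and 0.415, 0.212, 0.991, 1.22 and 0.228 CPM in control mice. Here too control mice 3 and 4 were highest. Mlkl, the effector that RIPK3 activates, was at 95.8 ± 8.48 CPM on the high-fat diet and 89.7 ± 5.61 CPM on the control diet (SD, n = 5 each; edgeR adjusted p = 0.68).

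**Figure D2:**
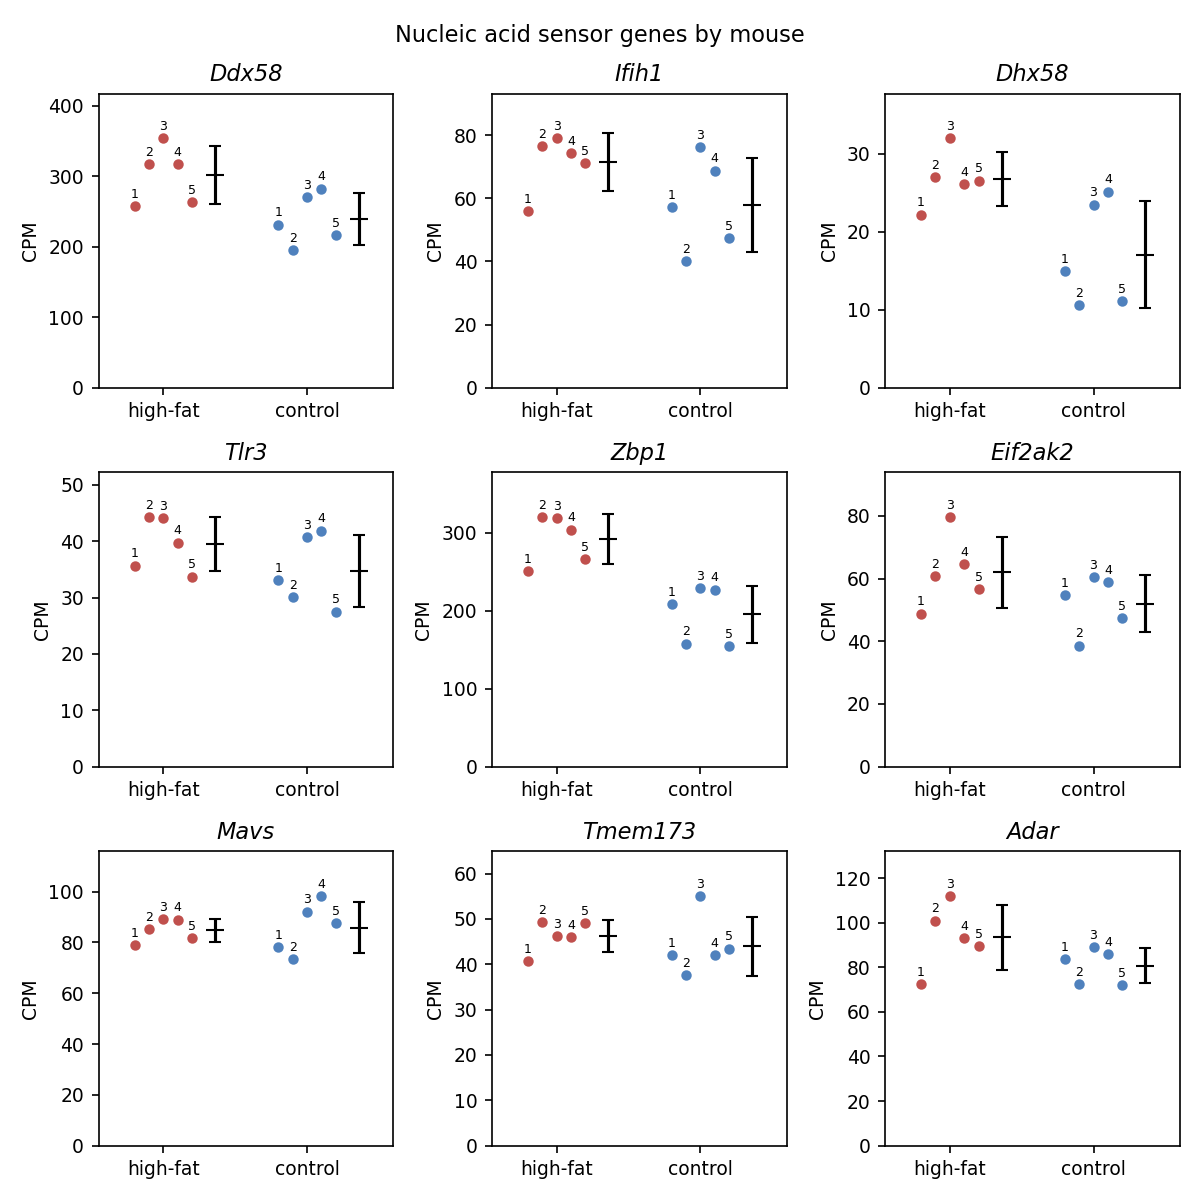
CPM of 9 sensor, adaptor and restraint genes in each mouse (points, numbered by mouse), with the mean and SD of 5 mice per diet beside them; axes start at 0. Zbp1 is the gene for which all high-fat mice (251 to 319.6 CPM) lie above all control mice (155 to 229 CPM).

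The adaptors differed least between the diets. Mavs, the mitochondrial platform for RIG-I and MDA5, had 79.0, 85.3, 89.2, 89.0 and 81.6 CPM in high-fat mice, against 78.1, 73.3, 92.1, 98.1 and 87.6 CPM in control mice. The high-fat values lay wholly inside the control range, and the log2 change was -0.02 (SE 0.08) with a 95% interval from -0.20 to 0.16. Its sign turned positive in some alternatives, at 0.09 without control mice 3 and 4. Tmem173, the cGAMP receptor on the endoplasmic reticulum, had 40.7, 49.2, 46.2, 46.0 and 49.0 CPM in high-fat mice, against 42.0, 37.6, 55.0, 42.0 and 43.4 CPM in control mice. Again the high-fat values lay inside the control range, and the log2 change was 0.07 (SE 0.10) with a 95% interval from -0.14 to 0.28. Cgas, which makes the cGAMP that STING binds, was at 33.2 ± 3.48 CPM on the high-fat diet and 34.5 ± 4.12 CPM on the control diet (SD, n = 5 each; edgeR adjusted p = 0.872).

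Of the restraints, Adar had 72.5, 101, 112, 92.9 and 89.3 CPM in high-fat mice, against 83.5, 72.5, 89.0, 85.9 and 72.0 CPM in control mice. High-fat mice 2 to 5 lay above every control mouse and high-fat mouse 1 among the lowest, and the log2 change was 0.21 (SE 0.11, 95% interval -0.02 to 0.45; edgeR adjusted p = 0.465). Gene counts cannot separate the interferon-inducible long form of ADAR from the constitutive short form. Of 50-base windows along the longest Adar transcript, 20.1% also occur in Chrnb2, which overlaps it on the opposite strand and had at most 3.87 CPM in any library. Trex1 (chromosome 9, 109057933 to 109059734, GRCm38) was listed at 0 in all 10 libraries. Its exons overlap those of Atrip on the same strand, and 95.6% of its windows also occur in Atrip transcripts. Atrip itself had between 1.19 and 1.53 CPM in high-fat mice and between 0.534 and 1.80 CPM in control mice. How reads matching both genes were counted is not stated in the labels, so the listed 0 does not measure Trex1.

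**Figure D3:**
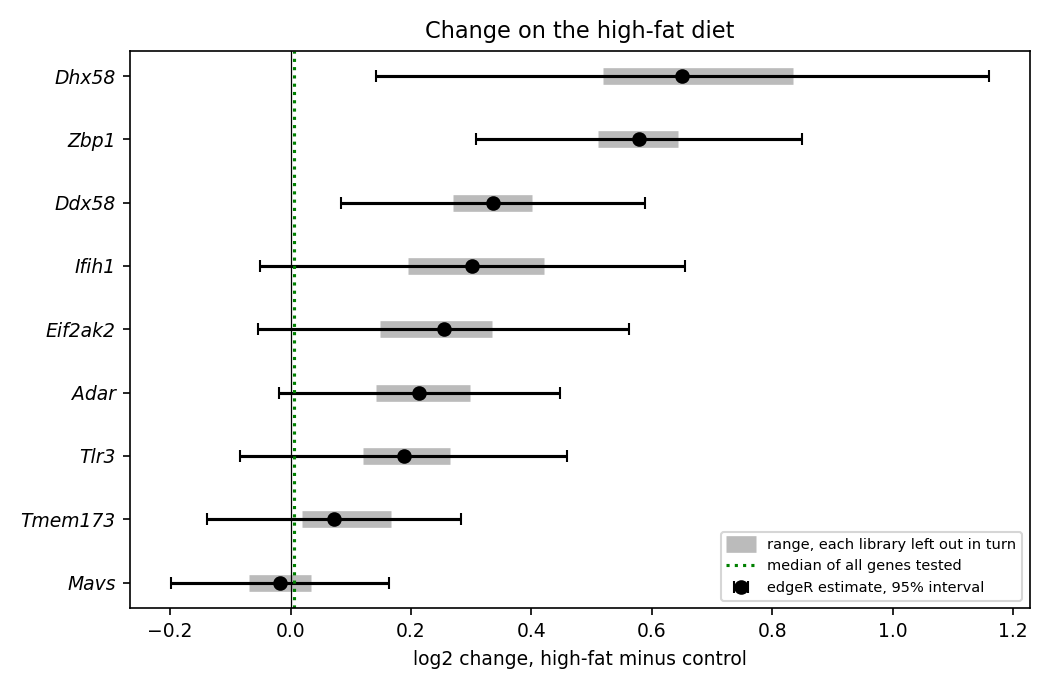
Log2 change of 9 genes, high-fat minus control (points, edgeR estimate; whiskers, 95% interval; grey bars, range when each library is left out in turn; dotted line, median of all genes tested). The intervals of Zbp1, Dhx58 and Ddx58 lie above 0 before adjustment for the number of genes, and those of the other 6 span 0.

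ADAR masks the double-stranded and Z-form RNAs that MDA5, PKR and ZBP1 would otherwise detect, so its transcript was set against each of these sensors within every library. Such a ratio does not depend on library scaling. The log2 ratio of Adar to Zbp1 counts was -1.79, -1.66, -1.51, -1.71 and -1.57 in high-fat mice, against -1.32, -1.12, -1.36, -1.40 and -1.10 in control mice. All 5 high-fat mice lay below all 5 control mice. The mean was lower by 0.39 (log2 difference -0.39, SE 0.08), or 0.764 times the control ratio. An exact two-sided permutation test gave p = 0.00794, the smallest that 5 mice against 5 can give, and an adjusted p of 0.0238 over the 3 ratios. Zbp1 was already known to be higher on this diet when the ratio was chosen, so this is no independent evidence of it.

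The ratios to the other sensors did not pass. For Adar to Ifih1 the log2 ratio averaged 0.39 ± 0.07 in high-fat mice and 0.51 ± 0.25 in control mice (SD, n = 5 each; exact permutation p = 0.341, adjusted p = 0.512). For Adar to Eif2ak2 it averaged 0.60 ± 0.10 in high-fat mice and 0.65 ± 0.15 in control mice (SD, n = 5 each; exact permutation p = 0.619, adjusted p = 0.619). Control mice 3 and 4 had the lowest control ratios of Adar to Ifih1 (0.22 and 0.32), and without them the difference was -0.28. The unadjusted exact permutation p was then 0.0179, the smallest that 5 mice against 3 can give. It shows only that the mice kept did not overlap. Whether the change of the Zbp1 ratio differs from those of the other ratios was not tested.

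**Figure D4:**
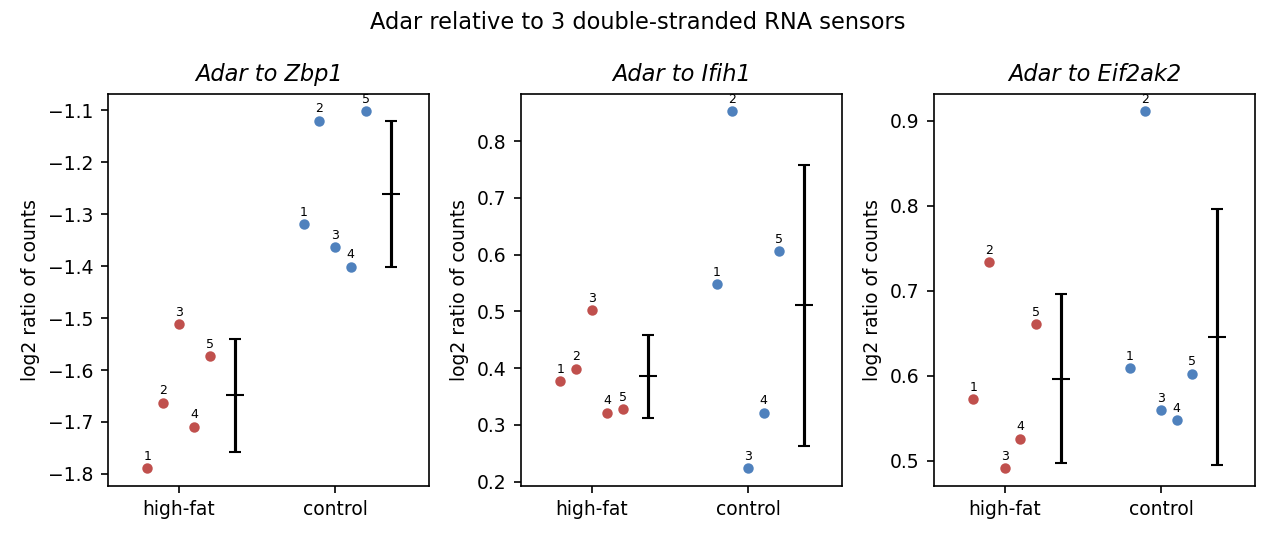
Log2 ratio of Adar counts to Zbp1, Ifih1 and Eif2ak2 counts in each mouse (points, numbered by mouse), with the mean and SD of 5 mice per diet; each panel has its own axis, which does not start at 0. For Zbp1 the high-fat ratios (-1.79 to -1.51) lie below all control ratios (-1.40 to -1.10), while the diets overlap in the other panels.

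The promoters of the sensors were searched for the core of the interferon-stimulated response element, because most of these genes are known interferon targets. Windows from 250 bases before to 50 bases after each RefSeq start (build GRCm38.p6) were at hand for 7 of the 10 genes, in 10 windows. The letters GAAA, any 2 bases and GAAA, on either strand, occurred in 3 of these 10 windows, and in 3.44% of all 32851 windows. They are shown with their flanks, 5′ to 3′ on the gene's strand and with the core in capitals.
Ddx58, chr4:40239804-40239833, minus strand: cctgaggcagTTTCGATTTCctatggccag
Eif2ak2, chr17:78882535-78882564, minus strand: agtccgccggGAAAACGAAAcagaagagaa
Ifih1, chr2:62646206-62646233, minus strand: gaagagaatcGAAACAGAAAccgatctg
Counted with the start base included, the core begins at base 3, 19 and 33 in Ddx58, Eif2ak2 and Ifih1, and it reads on the opposite strand in Ddx58. The windows of Adar, Mavs, Tlr3 and Trex1 did not hold these letters. The core of another interferon-responsive motif, the gamma-activated site (TTC, any 3 bases and GAA), was searched as well. It occurred in 2 of the 10 windows, those of Adar and Eif2ak2, and in 8.3% of all windows. A match describes the letters in a window and is no evidence of a bound site.

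Within each diet, most of the sensor genes were high or low in the same mice. Among control mice, mouse 3 or 4 had the highest CPM for all 9 genes (5 and 4 of them), and mouse 2 or 5 the lowest (6 and 3). Among high-fat mice, mouse 1 had the lowest CPM for 8 of the 9 and mouse 3 the highest for 6. How often these mice were highest or lowest over all genes tested was not counted. The pattern is therefore not shown to be particular to the sensors. The SD of log2 CPM was larger among control than among high-fat mice for 8 of the 9 genes, Adar being the exception, whereas this held for 41.0% of all genes tested. Control mice 3 and 4 also had the highest macrophage marker sums, at 380 and 433 CPM against 60.4 to 157 CPM in the other control mice. High-fat mice had macrophage sums of 27.3 to 68.1 CPM. The 7 pan-leukocyte markers summed to 9.89, 40.3, 37.1, 23.1 and 15.7 CPM in high-fat mice. In control mice they summed to 40.3, 11.4, 107, 139 and 19.1 CPM. The 10 T and NK cell markers summed to 1.01, 8.37, 8.73, 3.96 and 1.34 CPM in high-fat mice. In control mice these summed to 2.31, 0.371, 6.12, 14.8 and 0.569 CPM. Within each diet both sums followed a mouse order like that of the sensors. The part of these leukocyte transcripts in the sensors' spread was not tested.

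With the mean level of 7 pan-leukocyte markers as a covariate, edgeR called 6 of the 9 genes higher on the high-fat diet, where 3.6% of all genes were called and 1.83% were called higher. These were Zbp1, Dhx58, Ddx58, Ifih1, Tlr3 and Eif2ak2. All 7 markers themselves had a negative change on the high-fat diet, with a median log2 change of -1.14 and 2 at an unadjusted edgeR p under 0.05. The covariate thus differed between the diets, and the log2 change of Zbp1 rose with it from 0.58 to 0.75. Diet and marker level cannot be fully told apart in this fit. Without control mice 3 and 4 edgeR called 2, Zbp1 and Dhx58, where 1.89% of all genes were called and 0.823% were called higher. The mice left out were those with the highest control levels of the sensors and of the leukocyte markers.

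**Figure D5:**
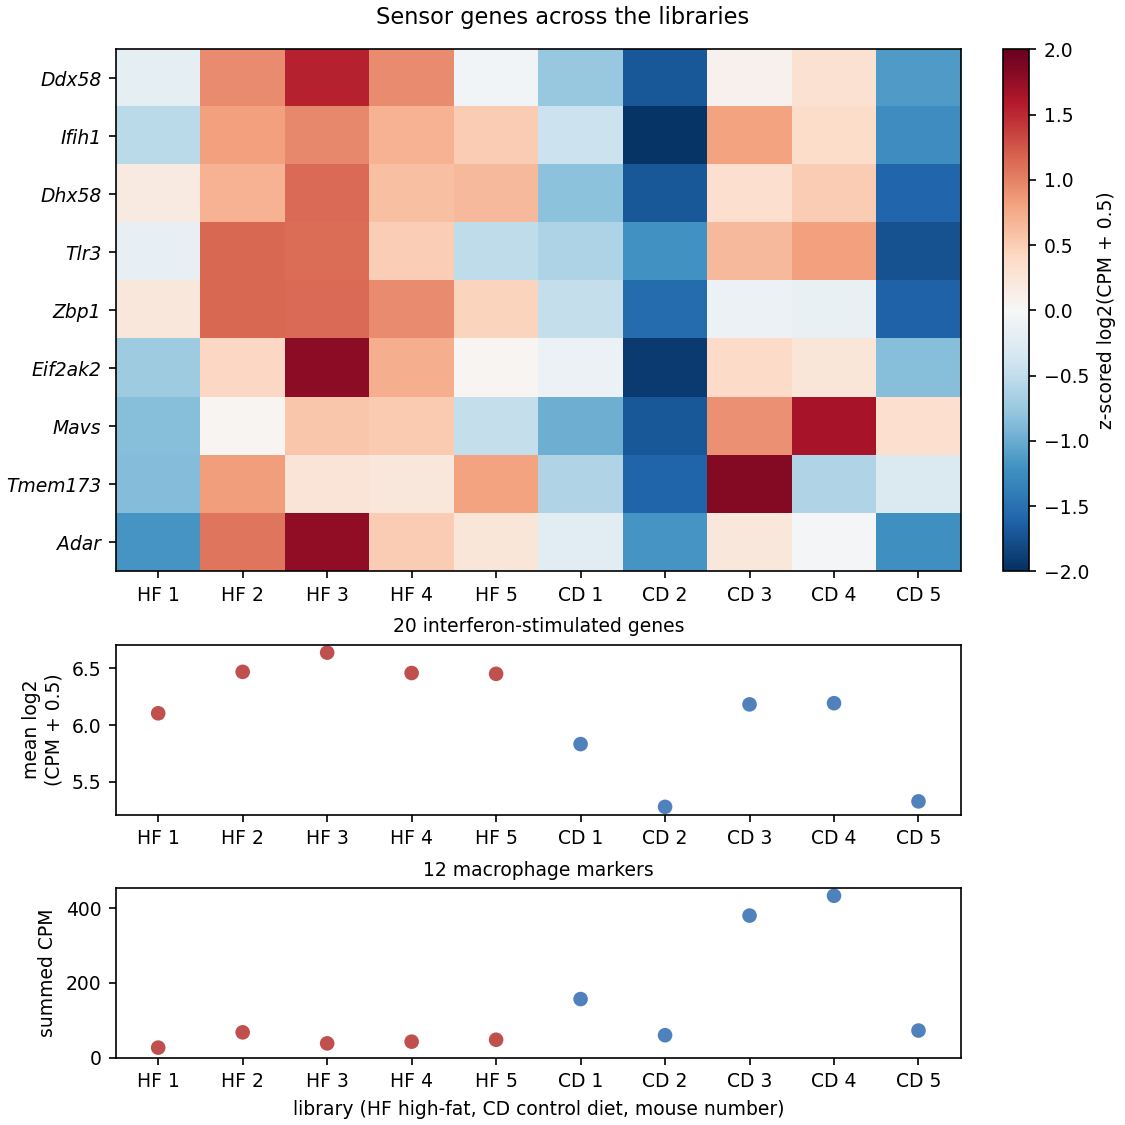
Top, z-scored log2(CPM + 0.5) of 9 genes in each library (HF, high-fat; CD, control diet); middle, mean log2(CPM + 0.5) of 20 other interferon-stimulated genes; bottom, summed CPM of 12 macrophage markers. Control mouse 2 is below the mean of the 10 libraries for all 9 genes and control mouse 5 for all but Mavs, while the macrophage sum is highest in control mice 3 and 4.

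Other genes that interferon induces followed a like order of mice. The mean log2(CPM + 0.5) of 20 such genes was 6.10, 6.47, 6.64, 6.46 and 6.45 in high-fat mice, against 5.83, 5.28, 6.18, 6.19 and 5.33 in control mice. High-fat mouse 1 lay below control mice 3 and 4 here, as for every sensor-pathway gene but Zbp1. All 20 genes had a positive change, against 51.4% of all genes tested. At an unadjusted edgeR p under 0.05, 18 were higher, against 5.45% of all genes, and 0 passed an adjusted p of 0.05. The median log2 change of the 20 was 0.56, against 0.25 for the 9 sensor-pathway genes and 0.01 for all genes tested. Bst2, which tethers budding virus, was at 233 ± 21.2 CPM on the high-fat diet and 154 ± 32.9 CPM on the control diet, and Herc6, a ubiquitin-like ligase gene, was at 46.7 ± 6.46 and 32.3 ± 5.85 CPM (SD, n = 5 each; edgeR adjusted p = 0.125 and 0.164). They had the smallest p of the 20, and 23.8% of the Herc6 windows are shared with Gm45193. The 5 interferon genes examined were hardly seen in these sorted cells: Ifnb1 had 11 counts and Ifng 10 counts over all 10 libraries, Ifna4 had 2, and Ifnl2 and Ifnl3 were listed at 0. Other interferon genes were not examined.

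Other genes of these pathways were counted from lists of 84 genes in all, of which 72 passed the expression filter. In edgeR 0 of the 72 passed, against 0.0628% of all genes tested. At an unadjusted p under 0.05 there were 27, against 12.1% of all genes, and 18 of the 27 were the interferon-stimulated genes. DESeq2 called 5, against 1.83% of all genes, limma-voom 0, against 0.0349%, and limma-voom with sample quality weights 18, against 5.16%. Among 13 kinases, factors and scaffolds after MAVS, STING and TRIF, 9 had a positive and 4 a negative change, with 2 in each direction at an unadjusted p under 0.05. The ubiquitin ligase Traf6 was at 48.4 ± 2.16 CPM on the high-fat diet and 56.9 ± 3.82 CPM on the control diet (edgeR adjusted p = 0.199). Tbkbp1, a scaffold of the kinase TBK1, was at 54.5 ± 5.61 CPM on the high-fat diet and 65.9 ± 3.96 CPM on the control diet (edgeR adjusted p = 0.21).

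Modifiers of RIG-I and MAVS signalling numbered 11 tested of 12, of which 7 had a positive change and 1 an unadjusted p under 0.05. That gene was Rnf135, the Riplet ubiquitin ligase of RIG-I, at 16.6 ± 2.03 CPM on the high-fat diet and 12.7 ± 2.91 CPM on the control diet (edgeR adjusted p = 0.303). Trim25, another RIG-I ligase, was at 143 ± 12.3 CPM on the high-fat diet and 127 ± 13.2 CPM on the control diet (edgeR adjusted p = 0.493). In the list for DNA sensing and clearance, 11 of 12 were tested, 6 had a positive change and 0 had an unadjusted edgeR p under 0.05. Its smallest p-values were those of Rnaseh2c, a subunit of RNase H2, at 29.3 ± 3.93 CPM on the high-fat diet and 26.1 ± 1.62 CPM on the control diet, and of the DNase gene Dnase1l3, at 0.558 ± 0.227 and 1.01 ± 0.625 CPM (edgeR adjusted p = 0.537 and 0.424). Of the Rnaseh2c windows, 35.0% are shared with Kat5 on the opposite strand.

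Partners of the endosomal receptors had 8 of 12 tested, 7 with a positive change and 2 at an unadjusted p under 0.05. These were Myd88, the adaptor of most Toll-like receptors but not of TLR3, at 55.1 ± 3.18 CPM on the high-fat diet and 47.4 ± 3.10 CPM on the control diet, and the chaperone Hsp90b1, at 2047 ± 166 and 1715 ± 176 CPM (edgeR adjusted p = 0.239 and 0.29). Exons of Myd88 overlap Acaa1a on the opposite strand, and some Hsp90b1 windows are shared with 1810014B01Rik and Gm15344. Downstream of PKR and ZBP1, 9 of 10 genes were tested and 4 had a positive change. Casp8, the protease that restrains necroptosis, was at 72.0 ± 7.60 CPM on the high-fat diet and 60.6 ± 3.61 CPM on the control diet, and Ppp1r15a, whose product reverses eIF2α phosphorylation, was at 116 ± 18.3 and 159 ± 40.9 CPM (edgeR adjusted p = 0.249 and 0.302). Ppp1r15a overlaps Tulp2 on the opposite strand.

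Outside these lists, the genes whose profile over the 10 libraries lay closest to the mean z-scored profile of the 9 sensor-pathway genes were Samd9l, Gbp4, Slfn8, Trafd1 and Sp100, among 9618 candidates with a mean of at least 10 CPM. Their mean absolute z difference from that profile was between 0.177 for Samd9l and 0.214 for Sp100. For the 9 genes themselves it ran from 0.163 for Ifih1 to 0.604 for Mavs, so Mavs and Tmem173 (0.538) followed the common profile least. Each of the 9 is part of that mean profile, so their distances are not comparable with those of the outside genes. Samd9l was at 69.5 ± 12.7 CPM on the high-fat diet and 53.6 ± 17.3 CPM on the control diet. Windows shared with related genes made up 12.8% for Gbp4 and 15.4% for Slfn8, so their counts are less certain.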

How the data were processed

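RNA from sorted MC38 tumor cells of 10 mice was measured, with 1 library per mouse. The authors deposited raw whole-number counts per gene in 1 table. Tools listed in the submitters' processing notes, without their order, are BWA 0.7.12, cutadapt 1.15, DESeq2 1.24.0 and FastQC 0.11.5, and mm10 and GRCm38 are the builds. What program counted reads, with which annotation and strand setting, is not given in the sources used here. BWA is not a spliced aligner, and without a known strand setting overlapping genes on opposite strands cannot be told apart.

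Symbols and positions came from GENCODE M21 (53274 of 53379 identifiers matched without the version), and promoter sequences from RefSeq (GRCm38.p6). The main test was edgeR 4.0.16 (R 4.3.3) after TMM scaling and filterByExpr, a robust quasi-likelihood fit on diet alone. CPM was taken over the TMM effective library size. The standard error is the change divided by the square root of F. DESeq2 1.42.0, limma 3.58.1 and other settings were alternatives. The fits were tested on simulated counts. Ratios used counts with no offset, and counts plus 0.5 were an alternative. The planned ratio of Trex1 to Tmem173 could not be computed, so 3 were adjusted together. The members and lists were chosen with earlier results of these data known. Besides the members, the 2 genes of each list with the smallest p are named, and the 5 of most similar profile. Mlkl, Cgas, Ripk3, Tlr9, Tlr13 and the interferon genes were chosen after their values were seen.

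No pair of libraries within a diet agreed within sampling noise (lowest chi-square per degree of freedom 7.75), so all were kept.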

Additional observations from a re-analysis of the deposited data

Results flagged for a closer look

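In 60 groups of 5 mice, 3 held a mouse far from the others, and chance flags about 1 in 20 such groups. The Adar to Eif2ak2 log2 ratio of control mouse 2 (0.911) stood apart from the other control mice (0.55 to 0.61), and high-fat mice lay between 0.49 and 0.73. Slfn8 stood lowest in high-fat mouse 1, at 17.2 CPM against 27.0 to 30.2 CPM in the other high-fat mice, and control mice ran from 8.91 to 26.0 CPM. Dnase1l3 was highest in control mouse 4, at 2.11 CPM.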

How the results depend on the processing

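The number of sensor-pathway genes called was 0 with RLE size factors, limma-voom, the library size covariate, the replicate block and with each library left out. It was 1 with DESeq2, 1 with no filter on low counts, 2 without control mice 3 and 4, 3 with limma-voom and sample quality weights, and 6 with the pan-leukocyte covariate. At an unadjusted p under 0.05 the count of 3 (12.1% of all genes) became 1 with the library size covariate (5.7%), 5 with the replicate block (11.5%), 7 without control mice 3 and 4 (15.7%), 7 with quality weights (24.3%) and 7 with the pan-leukocyte covariate (18.3%). With each library left out it was 3 to 6 (8.46% to 14.9%). Partner genes called numbered 2 with no filter (0.182% of all genes), 5 with DESeq2 (1.83%) and 16 without control mice 3 and 4 (1.89%). They numbered 18 with quality weights (5.16%) and 23 with the pan-leukocyte covariate (3.6%). Over all genes the 9 calls became 0 with the library size covariate, 5 with limma-voom, 16 with the replicate block, 53 with no filter, 276 without control mice 3 and 4, 326 with DESeq2, 516 with the pan-leukocyte covariate and 740 with quality weights, and 1 to 27 with each library left out. The cause was not tested.

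Of 171 alternative values of the 9 genes' log2 changes, 8 changed sign. Mavs was at 0.0186 with the library size covariate, 0.0635 with the pan-leukocyte covariate, 0.0664 with quality weights, 0.0893 without control mice 3 and 4, and between -0.0694 and 0.0347 with each library left out. Tmem173 was at -0.0052 with the library size covariate. The Adar to Zbp1 difference lay between -0.42 and -0.35 with each library left out, at an exact p of 0.00794 each time, and was -0.47 without control mice 3 and 4 (exact p = 0.0179). Each is the smallest p its sample numbers allow and shows only that the diets did not overlap. The Adar to Ifih1 difference without those mice was -0.28, and that of Adar to Eif2ak2 lay between -0.0832 and 0.0171 with each library left out. Sample titles number the mice afresh within each diet, but the column headers number all mice without repeats, so pairs by title number are arbitrary. Mice with the same title number did not deviate together (correlations from -0.353 to 0.338), and only high-fat mouse 3 matched its own number best. With the replicate block as these 5 arbitrary pairs, the Adar to Zbp1 difference was -0.39. Its exact sign-flip p of 0.0625 is the smallest that 5 pairs allow.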
